A study of Arabidopsis thaliana with 21 samples.

Results

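GH3.3 (locus AT2G23170) encodes an enzyme of the GH3 family in Arabidopsis thaliana, and it is followed here through the one probe set that the annotation assigns to it alone, 245076_at, on all 21 arrays. It is 1 of 13286 genes with such a probe set. Transcripts were measured on Affymetrix arrays with 1 label, from aboveground tissue (rosettes) of plants grown in soil for 21 days under long days, with 3 arrays for each of 7 genotypes. The genotypes were the double mutant aba2/ga20ox1, the mutant aba2, the combination aba2/GA20OX1-OE, the overexpression lines ABA2-OE and GA20OX1-OE, the mutant ga20ox1 and the wild type Col-0, which is also the background of the other 6. Plants make abscisic acid (ABA) with the help of the ABA2 enzyme, and GA20OX1 catalyses late steps towards active gibberellin (GA). The series is about how both hormones act together on leaf development. The sources used here do not give the mutant alleles, the promoters of the transgenes or the number of transgenic lines, nor do they say whether arrays of one genotype stand for separate plants or harvests. P-values therefore measure only the spread between these arrays, which may be technical.

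GH3 enzymes join amino acids to plant hormones. GH3.3 conjugates the auxin indole-3-acetic acid (IAA), which removes it from the active pool, and auxin itself induces GH3.3 through response factors that Aux/IAA repressor proteins hold back when auxin is low. In this way the GH3 genes form a feedback on auxin level, and the GH3.3 transcript is widely used as an auxin response marker.

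Values are MAS5 signals, a linear brightness per probe set that the authors had already scaled to the same level on every array. Array medians lay between 131 and 187 in signal, and correlations of log2 signals between arrays of one genotype were 0.958 to 0.983. Of 22746 probe sets that are no control, 15923 were tested, those whose mean log2 signal lay above the lowest 30% (a bound of 38.24 in signal). GH3.3 passed this bound on each of the 21 arrays, its lowest signal being 47.1. The number of arrays limits the precision of every value. In whole rosettes, fewer cells of a type and less RNA per cell cannot be told apart.

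GH3.3 was chosen with its signals on these arrays already known, so its levels are given as a description with no test. In aba2/ga20ox1 the signal was 242, 274 and 228 on arrays 1, 2 and 3. In aba2 it was 206, 223 and 207, and in aba2/GA20OX1-OE 147, 198 and 187. The 9 arrays that carry aba2 thus ran from 147 to 274, with a median of 207.

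The 12 arrays without aba2 all lay lower, from 47.1 to 125, with a median of 104. ABA2-OE had 114, 125 and 61.9 on arrays 1, 2 and 3, and GA20OX1-OE had 125, 123 and 61.4. The signal in ga20ox1 was 106, 124 and 47.1, and in Col-0 it was 101, 80.6 and 49.4. The lowest array with aba2, aba2/GA20OX1-OE array 1 at 147, was above the highest without it, ABA2-OE array 2 at 125. Of all tested probe sets, 0.867% had every aba2 array above every other array and 0.911% had every aba2 array below; these shares are the background for GH3.3, and nothing is read from them, since the gene was chosen with this contrast known.

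**Figure D1:**
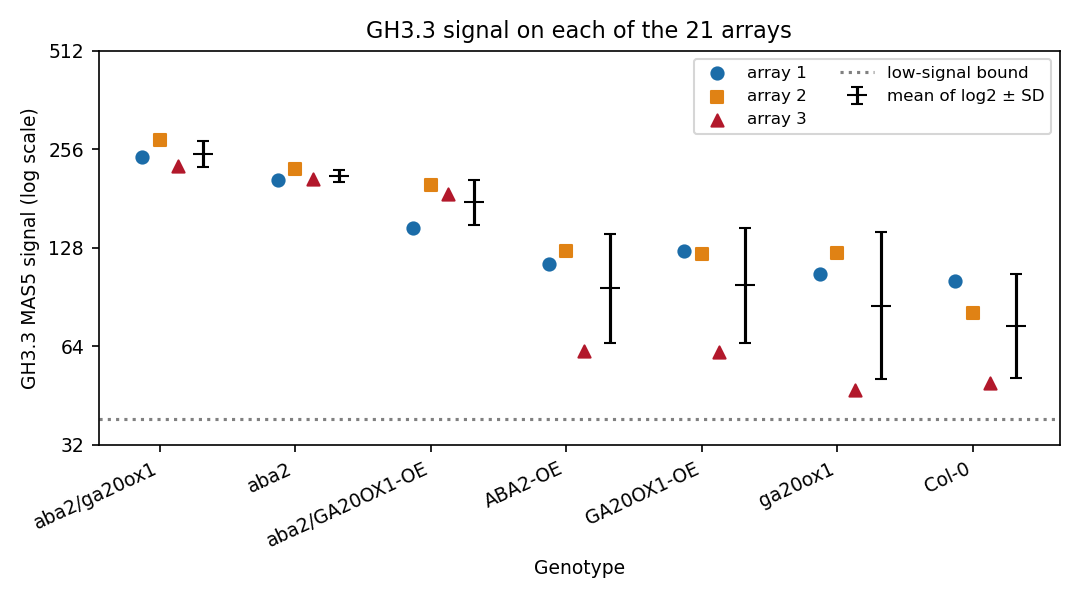
MAS5 signal of GH3.3 (log scale) on each of the 21 arrays, by genotype, with the mean of the log2 signals and its SD (n = 3) beside the points and the low-signal bound of 38.24 as a dotted line. The 9 arrays with aba2 lie between 147 and 274, and array 3 is the lowest of each of the 4 genotypes without aba2, at 47.1 to 61.9.

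The genotypes fell into an order on the log2 scale. The mean log2 signal was 7.95 ± 0.13 (SD, n = 3 here and below) in aba2/ga20ox1, 7.73 ± 0.06 in aba2 and 7.46 ± 0.23 in aba2/GA20OX1-OE. It was 6.62 ± 0.59 in GA20OX1-OE, 6.59 ± 0.55 in ABA2-OE, 6.41 ± 0.75 in ga20ox1 and 6.21 ± 0.53 in Col-0. Each step among the first 4 genotypes of this order (0.22, 0.27 and 0.84) was larger than the SD of either neighbour, and the arrays of those neighbours did not overlap. Among GA20OX1-OE, ABA2-OE, ga20ox1 and Col-0 the steps of 0.03, 0.17 and 0.21 were smaller than the SD of either neighbour and the arrays overlapped, so these 4 genotypes were not ordered beyond their spread. Array 3 was the lowest of each of these 4 genotypes, and its drop, described below, is part of their SDs.

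Against Col-0, the log2 difference of GH3.3 was 1.52 in aba2 (SE 0.35, a 2.87-fold higher mean), 1.74 in aba2/ga20ox1 (3.34-fold) and 1.25 in aba2/GA20OX1-OE (2.38-fold). All differences between 2 genotypes have this SE, which comes from 1 fit over all arrays. It pools SDs of 0.06 to 0.23 in the genotypes with aba2 and 0.53 to 0.75 in those without, so it is the spread of neither group. The 3 genotypes that keep ABA2 differed from Col-0 by 0.38 in ABA2-OE, 0.21 in ga20ox1 and 0.41 in GA20OX1-OE, each close to or under 1 SE. All 6 comparisons share the 3 Col-0 arrays, which had the lowest mean of the 7 genotypes, so they are not independent of each other.

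The difference that goes with aba2 was also present in pairs that leave Col-0 out. It was 1.54 in aba2/ga20ox1 against ga20ox1 (2.90-fold) and 0.84 in aba2/GA20OX1-OE against GA20OX1-OE (1.80-fold). In ABA2-OE against aba2 it was -1.14, the mean in ABA2-OE being 0.45 of that in aba2. Averaged over the 3 states of GA20OX1, 9 arrays with aba2 against 9 without, the aba2 effect on GH3.3 was 1.30 (SE 0.20, 2.46-fold).

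The state of GA20OX1 was accompanied by smaller steps in GH3.3, with separate arrays only where aba2 was present. Relative to aba2, the difference was 0.22 in aba2/ga20ox1 and -0.27 in aba2/GA20OX1-OE (SE 0.35 each), and between these combinations, aba2/GA20OX1-OE against aba2/ga20ox1, it was -0.49 (SE 0.35). The lowest array of aba2/ga20ox1 (228) was above the highest of aba2 (223), and the lowest of aba2 (206) was above the highest of aba2/GA20OX1-OE (198). This order with no overlap was found in 0.559% of tested probe sets and the opposite order in 0.986%. The order was taken from the GH3.3 values themselves, so nothing is read from these shares. Where ABA2 was intact, GA20OX1-OE differed from ga20ox1 by 0.20, and the arrays overlapped. The interaction of aba2 with ga20ox1 was 0.02 and that of aba2 with GA20OX1-OE -0.68 (SE 0.49 each), given as a description.

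Array 3 stood apart within the genotypes that keep ABA2. On the log2 scale the GH3.3 signal of array 3 lay below the mean of arrays 1 and 2 by a difference of -0.95 in ABA2-OE, -1.01 in GA20OX1-OE, -1.29 in ga20ox1 and -0.87 in Col-0. The 4 arrays numbered 3 ran from 47.1 to 61.9 and the other 8 arrays without aba2 from 80.6 to 125, so the sets did not overlap. With aba2 the corresponding differences were -0.17 in aba2/ga20ox1, -0.05 in aba2 and 0.13 in aba2/GA20OX1-OE, and array 3 was the lowest of its genotype only in aba2/ga20ox1. The median shift of all tested probe sets was between -0.04 and 0.13 in the 7 genotypes. Its share in the GH3.3 values was not tested, nor what the number 3 stands for, which the labels do not give.

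Few probe sets had this behaviour of array 3. Array 3 was lower by over 0.5 on the log2 scale in each of the 4 genotypes without aba2 for 0.17% of tested probe sets (27), and higher by over 0.5 in each for 0.414% (66). For 7 probe sets (0.044%) it was lower in those 4 and within 0.5 in each of the 3 genotypes with aba2. These bounds were set after the GH3.3 values were seen. Besides GH3.3 they were AT1G73480, AT5G03230 and AT1G48100, and 246310_at, 255381_at and 266886_at, which the annotation does not assign to 1 gene. The differences ran from -0.65 to -1.19 in AT1G73480, from -0.55 to -1.02 in AT5G03230 and from -0.53 to -1.10 in AT1G48100. GH3.3 was the only tested probe set (1 of 15923) that also had all 9 aba2 arrays above the 12 others. Both conditions were set with the GH3.3 values known, so this count says nothing on how rare such a pattern is.

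**Figure D2:**
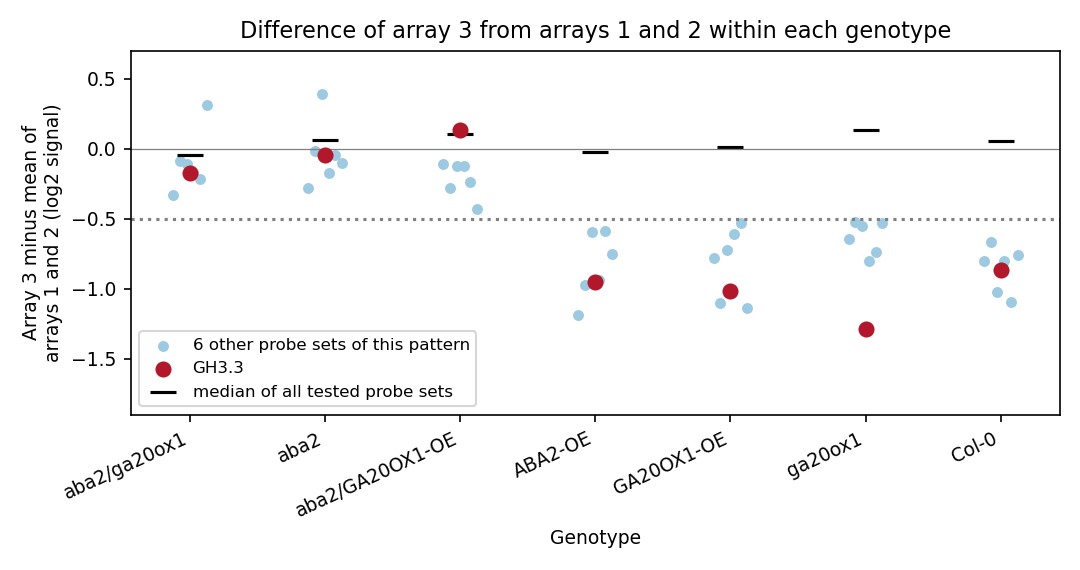
Log2 signal of array 3 minus the mean of arrays 1 and 2 within each genotype, for GH3.3, for the 6 other probe sets chosen by the same bounds, and as the median of all tested probe sets; the dotted line marks -0.5. GH3.3 lies between -0.87 and -1.29 in the 4 genotypes without aba2 and between -0.17 and 0.13 in the 3 with it.

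With the 7 arrays numbered 3 left out, a setting chosen after the values were seen, the GH3.3 differences kept their sign against Col-0. They were 1.25 in aba2, 1.51 in aba2/ga20ox1 and 0.92 in aba2/GA20OX1-OE (SE 0.24 each), and the mean aba2 effect was 0.96 (SE 0.14, 1.94-fold). ABA2-OE, ga20ox1 and GA20OX1-OE differed from Col-0 by 0.41, 0.34 and 0.46 (SE 0.24 each). The interaction of aba2 with ga20ox1 was -0.08 and that of aba2 with GA20OX1-OE -0.78 (SE 0.34 each), given as a description. The difference in aba2/GA20OX1-OE against GA20OX1-OE was 0.46 (1.38-fold), against 0.84 (1.80-fold) with all arrays, and leaving out only GA20OX1-OE array 3 gave 0.51.

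Of the GH3 family, 4 other genes were named by the annotation; further GH3 genes may be among its 8794 unlisted probe sets and were not analysed here. WES1 (GH3.5), which conjugates IAA and salicylic acid, GH3.9 and GH3.17, an IAA conjugating enzyme, were tested, while GH3.1 had a signal under the low-signal bound on 20 of 21 arrays and was not tested. The mean aba2 effect was 0.02 in WES1 (SE 0.14, adjusted p = 0.96), -0.08 in GH3.9 (SE 0.17, adjusted p = 0.82) and -0.09 in GH3.17 (SE 0.14, adjusted p = 0.74), from limma over all tested probe sets. None of the 3 was called in any of the 16 comparisons.

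WES1 had its highest level in ABA2-OE, with signals of 348, 333 and 210, against 179, 177 and 178 in aba2. The limma log2 difference in ABA2-OE against aba2 was 0.70 (SE 0.24, adjusted p = 0.056), which did not pass. Against the 196, 185 and 182 of Col-0, the difference in ABA2-OE was 0.63 (SE 0.24, limma adjusted p = 0.19).

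GH3.9 was highest in aba2/GA20OX1-OE, with signals of 148, 109 and 145, against 81.7, 58.0 and 77.0 in aba2. The limma log2 difference of 0.89 (SE 0.29, adjusted p = 0.22) did not pass. The mean log2 signal of GH3.17 ran only from 5.77 in aba2/GA20OX1-OE to 6.15 in GA20OX1-OE.

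Other auxin genes were taken from 8 lists by name. Members were found for 6 of them, 21 genes besides GH3.3, of which 12 passed the low-signal filter. No member was named for the SAUR genes or for the response factors and receptors. The 9 that did not pass were GH3.1, IAA20, IAA31, IAA33, IAA34, YUC4, YUC11, UGT84B1 and LBD29. Another 3 genes, IAGLU, ILR3 and ARL, were added after the annotation was read and are counted apart.

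In the mean aba2 effect, 1 of the 12 rose and 1 fell, by limma at an adjusted p under 0.05, where 16% of all tested probe sets were called (8.79% higher, 7.18% lower). The median difference of the 12 genes was -0.05 and that of all tested probe sets 0.003. The share called among the 12 (16.7%) was near that background.

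The gene that rose was HAT2, an auxin-induced HD-Zip transcription factor gene. Its signal was 362 to 605 on the 9 aba2 arrays, with a median of 486, and 216 to 487 on the 12 arrays without aba2, with a median of 294. The ranges overlapped, and the mean aba2 effect was 0.70 (SE 0.14, limma adjusted p = 0.0012). HAT2 differed by 0.54 in aba2 against Col-0 and by 0.55 in aba2/GA20OX1-OE against GA20OX1-OE (limma adjusted p = 0.27 each, not called). Within the ga20ox1 state, HAT2 had 486, 477 and 500 in aba2/ga20ox1, against 280, 216 and 234 in ga20ox1. The difference was 1.01 (SE 0.25, limma adjusted p = 0.016). It was the 1 call among the 12 genes in that comparison, in which 5.44% of tested probe sets were called, and it ended without ga20ox1 array 2 (0.084), ga20ox1 array 3 (0.055) or aba2/ga20ox1 arrays 1 (0.052) or 3 (0.062), and without all arrays numbered 3 (0.064).

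IAA18, which encodes an Aux/IAA repressor of auxin response, fell. Its signal was 467 to 636 on the aba2 arrays, with a median of 544, and 522 to 1084 on the arrays without aba2, with a median of 789. The mean aba2 effect was -0.51 (SE 0.11, limma adjusted p = 0.0027). IAA18 differed by -0.24 in aba2 against Col-0 (limma adjusted p = 0.63) and by -0.60 in aba2/ga20ox1 against ga20ox1 (limma adjusted p = 0.077), neither called. In aba2/GA20OX1-OE the signals were 473, 519 and 544, against 785, 794 and 872 in GA20OX1-OE. That difference was -0.68 (SE 0.19, limma adjusted p = 0.049), the 1 call among the 12 genes where 4.52% of tested probe sets were called. It lost its call without any 1 of the 6 arrays compared (limma adjusted p from 0.081 to 0.15).

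The other tested members had mean aba2 effects that did not pass. For YUC2 and YUC6, flavin monooxygenase genes of IAA synthesis, they were 0.18 (SE 0.13) and 0.04 (SE 0.34). WAG2, a kinase gene that acts on the polarity of auxin efflux carriers, had 0.67 (SE 0.24, limma adjusted p = 0.062), and LBD16, an auxin-induced gene of lateral root formation, -0.68 (SE 0.28, limma adjusted p = 0.12). IAA30 and IAA29 had -0.25 (SE 0.17) and -0.02 (SE 0.29). Signals of WAG2, LBD16, IAA30 and YUC6 were under the low-signal bound on 6 or 7 of the 21 arrays each. UGT74D1, a glucosyltransferase acting on auxins, had a mean aba2 effect of -0.23 (SE 0.13).

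UGT74D1 was the 1 call of 12 in ABA2-OE against aba2, where 13.8% of tested probe sets were called. Its mean log2 signal was 7.73 ± 0.10 in ABA2-OE and 7.03 ± 0.38 in aba2 (difference 0.70, SE 0.22, limma adjusted p = 0.038). The call ended without ABA2-OE array 1, 2 or 3 or aba2 array 2 or 3, with limma adjusted p from 0.0705 to 0.163, and without all arrays numbered 3 (0.26).

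Of the 3 genes added by name, ARL (ARGOS-like), which promotes organ growth, rose in the mean aba2 effect by 0.48 (SE 0.14, limma adjusted p = 0.026). Its signal was 378 to 666 on the aba2 arrays and 266 to 656 on the 12 arrays without aba2, so the ranges overlapped widely. The call ended when any 1 of 6 arrays was left out (aba2 array 2, aba2/ga20ox1 array 2, aba2/GA20OX1-OE arrays 1 and 2, ga20ox1 array 3 or GA20OX1-OE array 3), with limma adjusted p up to 0.061. IAGLU, an IAA glucosyltransferase gene, had -0.06 (SE 0.16) and the transcription factor gene ILR3 0.04 (SE 0.10).

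**Figure D3:**
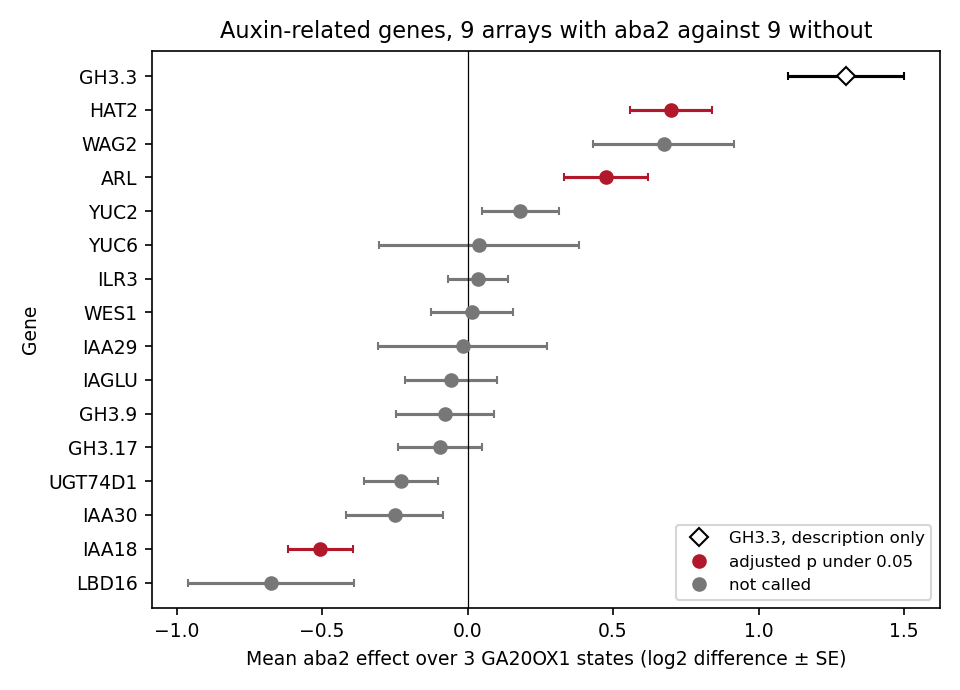
Mean aba2 effect over the 3 states of GA20OX1 (log2 difference with its SE, 9 arrays against 9) for GH3.3, shown as a description, for the 12 other tested auxin genes and for the 3 genes added by name. HAT2 (0.70) and ARL (0.48) rose, IAA18 fell (-0.51), and GH3.3 stands at 1.30.

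In the other 12 comparisons limma called 0 of the 12 auxin genes at an adjusted p under 0.05. Against Col-0, the share of all tested probe sets called at that threshold was 5.03% in aba2, 0.226% in ABA2-OE, 0.0126% in ga20ox1, 0.0188% in GA20OX1-OE, 7.37% in aba2/ga20ox1 and 8.62% in aba2/GA20OX1-OE. It was 0.132% in GA20OX1-OE against ga20ox1, 0.00628% in aba2/ga20ox1 against aba2, 0.76% in aba2/GA20OX1-OE against aba2 and 3.91% in aba2/GA20OX1-OE against aba2/ga20ox1. For the interaction of aba2 with ga20ox1 it was 0%, and for that of aba2 with GA20OX1-OE 0.0377%. Without an intensity trend, 1 auxin gene was called in aba2 against Col-0, where 4.44% of tested probe sets were called.

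The same comparisons were read at an unadjusted p under 0.05, where many more probe sets pass. Against Col-0, 4 of the 12 auxin genes passed in aba2 (15.8% of all tested probe sets), 1 in ABA2-OE (17.2%), 1 in aba2/ga20ox1 (20%) and 0 in ga20ox1 (6.1%), GA20OX1-OE (12.6%) and aba2/GA20OX1-OE (22.7%). In GA20OX1-OE against ga20ox1, 1 passed where 9.87% of all did, and in aba2/ga20ox1 against aba2, 1 where 6.49% did. In aba2/GA20OX1-OE, 3 passed against aba2 (9.97% of all) and 1 against aba2/ga20ox1 (21%). For the interactions of aba2, 0 passed with ga20ox1 (7.26% of all) and 0 with GA20OX1-OE (5.32%).

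The 12 tested auxin genes and the 3 added by name were compared with GH3.3 over the 21 arrays. Closest were ARL, which was added by name (Pearson r = 0.72, Spearman rho = 0.65), and HAT2 (r = 0.70, rho = 0.70). IAA18 was the most opposed (r = -0.74, rho = -0.64). Without the 2 arrays farthest from the GH3.3 median, ga20ox1 array 3 and Col-0 array 3, r was 0.67, 0.66 and -0.67 for these genes. The GH3 genes WES1, GH3.9 and GH3.17 had r of -0.05, 0.09 and 0.03. The arrays of a genotype share that genotype, and the points share the scaling of each array, so these values describe the arrays and carry no test.

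The 5 genes most like GH3.3 among 8760 tested probe sets with 1 gene were AT4G38810 (r = 0.88 over 21 arrays), AT1G14210 (0.87), AT5G55530 (0.86), AT5G06570 (0.86) and AT2G41990 (0.86). Spearman's rho was 0.87, 0.89, 0.85, 0.89 and 0.85 in the same order, and r over 19 arrays, without the 2 named above, was 0.83 to 0.87. The reference table gives these genes no name beyond the locus. Over all tested probe sets the median r with GH3.3 was -0.002, 25 named ones had r over 0.8 and 21 had r under -0.8.

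AT1G14210 had signals of 430 to 732 on the aba2 arrays, with a median of 613, and 201 to 317 on the arrays without aba2, with a median of 253. AT5G55530 had 1744 to 2779 on the aba2 arrays and 820 to 1401 on the others, and AT5G06570 had 108 to 223 and 36.9 to 94.6. AT2G41990 ran from 316 to 553 with aba2 and from 196 to 314 without. These 4 genes parted the arrays by aba2 with no overlap, as GH3.3 did and as 0.867% of all tested probe sets did in this direction. They were picked for a high r with GH3.3 over the same arrays, so this follows largely from the choice and nothing is read from it. AT4G38810 overlapped, at 1011 to 1772 with aba2 and 649 to 1098 without.

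The 3 most unlike genes were AT5G61290 (r = -0.88, rho = -0.87), AT1G31690 (r = -0.87, rho = -0.84) and AT5G06700 (r = -0.86, rho = -0.83), for which the table gives the synonym TRICHOME BIREFRINGENCE. AT1G31690 had signals of 426 to 614 on the aba2 arrays and 892 to 2294 on the others. AT5G61290 (78.7 to 165 with aba2, 142 to 271 without) and AT5G06700 (487 to 767 with aba2, 717 to 1241 without) overlapped.

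**Figure D4:**
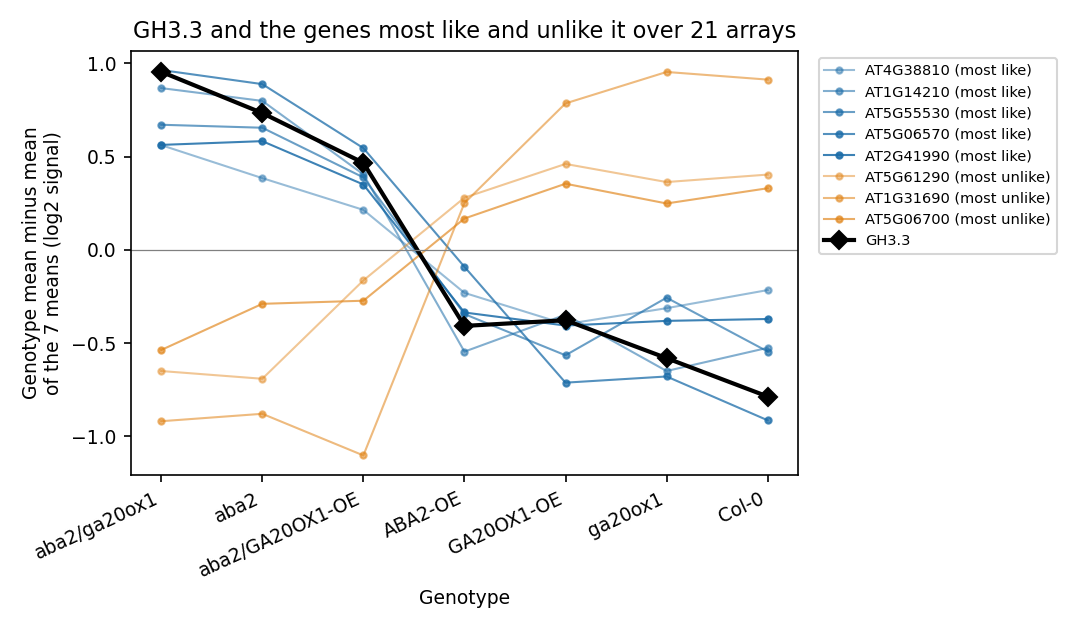
Genotype mean of the log2 signal minus the mean of the 7 genotype means, for GH3.3, the 5 genes most like it and the 3 most unlike it over 21 arrays. The like genes and GH3.3 lie above 0 in the 3 genotypes with aba2 and below 0 in the 4 without, and the unlike genes the other way round. Both sets were picked by r over the same arrays, so these directions follow largely from the choice.

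When only the deviations of arrays from their genotype means were compared, other genes came closest. AT3G07350 (r = 0.89), AT5G51400 (0.84) and AT5G19120 (0.83) followed the GH3.3 deviations most, a choice made after the values were seen. Over the 7 genotype means, AT3G07350 had an r of -0.88 with GH3.3, AT5G19120 -0.61 and AT5G51400 0.35. AT3G07350 thus ran with GH3.3 within genotypes and against it between them. Its signal was 88.0 to 142 on the aba2 arrays and 101 to 390 on the arrays without aba2.

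Of the 6 protein-coding genes next to GH3.3 in the reference order, 3 on each side, the annotation assigned a probe set only to AT2G23160 and AT2G23200. The others may be among the unlisted probe sets or those with several genes. AT2G23160 did not pass the low-signal filter. AT2G23200 had an r of -0.47 with GH3.3 and signals of 187 to 442 on the aba2 arrays and 196 to 568 on the others.

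Markers of the tissue were read beside these results. All 3 named rosette leaf markers of 12 listed were bright, with a summed signal of 32352 to 45476 on the aba2 arrays and 38110 to 55892 on the others. For roots, 3 of 6 markers were named, with sums of 317 to 1227 with aba2 and 613 to 1826 without. For flowers and pollen 4 of 10 were named, with sums of 261 to 1872 with aba2 and 286 to 693 without. No marker of any list was at 0 on any array, which does not show that each was detected. The root marker EXPA7 did not pass the low-signal filter. ATA27, an anther-associated gene, was higher with aba2 (mean aba2 effect 4.59, SE 0.59, limma adjusted p = 6.7e-06). Its signals were under the low-signal bound in Col-0 (3.28 to 21.4) and ga20ox1 (1.26 to 15.6), and ran from 40.2 to 685 in aba2. ACT11 was lower on average (-0.55, SE 0.11), and FD and INO were not called in the mean aba2 effect. FD was called in aba2/GA20OX1-OE against Col-0 (1.95, limma adjusted p = 0.014). INO was called in ABA2-OE against aba2 (1.91, limma adjusted p = 0.012) and in aba2/GA20OX1-OE against aba2 (2.20, limma adjusted p = 0.030). The ACT11 difference was -0.86 in aba2 against Col-0 and -0.95 in aba2/ga20ox1 against ga20ox1. In aba2/GA20OX1-OE against GA20OX1-OE the ACT11 difference was 0.16 (SE 0.19). The root gene PYK10 was lower (-0.81, SE 0.15), the leaf gene PORB was lower (-0.62, SE 0.12) and LHCB4.3 was higher (1.18, SE 0.12), each called by limma. For PYK10 the difference was -0.12 in aba2 against Col-0, -0.69 in aba2/ga20ox1 against ga20ox1 and -1.62 in aba2/GA20OX1-OE against GA20OX1-OE. Only the last of these PYK10 differences was called by limma. The other tested markers were not called, the root gene EXPA18 at 0.42 (SE 0.35) and the leaf gene RCA at -0.14 (SE 0.08). The sums had r with GH3.3 of 0.27 for flowers and pollen, -0.21 for roots and -0.33 for leaves over the 21 arrays. Their part in the GH3.3 differences was not tested.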

How the data were processed

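The deposited table holds 1 intensity per probe set and array, linear and made with MAS5, per the submitters' processing notes, which give no version. A trimmed mean (2% off each end) was 500 for all arrays, so they had been scaled. All 21 columns were mapped to genotypes by their labels, and no columns were identical. Probe sets were named from the platform annotation (13436 with 1 gene, 503 with several, 8794 not listed), with symbols updated through RefSeq (TAIR10.1); no coordinates are given because the files name no build.

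Signals were logged to base 2. The 64 control probe sets and the 30% of the others with the lowest mean were left out. Differences came from 1 limma 3.58.1 fit (R 4.3.3) of 7 genotype means over 21 arrays, with an intensity trend and Benjamini-Hochberg adjustment over 15923 probe sets, two-sided. Tables and figures used Python 3.11.15, pandas 2.3.3, scipy 1.17.1 and matplotlib 3.10.9. GH3.3 and all lists were chosen with earlier results of these data known. Named genes were the GH3 family, called list members (up to 4 per direction, or otherwise members with small p), and the 5 most like and 3 most unlike GH3.3 by r; others are said to be chosen later. The fit was tested on simulated data. Alternatives were no trend, array weights, a replicate block, fewer genotypes, filters, a pseudocount of 20.1, quantile normalization and left-out arrays.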

Additional observations from a re-analysis of the deposited data

How the results depend on the processing

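No GH3.3 difference moved by over the pooled SD between arrays (0.47, log2) in 264 alternative values. No trend, no filter, fewer genotypes and the block cannot change it. The GH3.3 mean aba2 effect was 1.16 to 1.39 without single arrays and 0.96 to 1.34 otherwise. In the interaction of aba2 with ga20ox1 these ranges were -0.41 to 0.31 and -0.37 to 0.25, and in GA20OX1-OE against ga20ox1 -0.23 to 0.54 and -0.24 to 0.20. Without single arrays it was -0.08 to 0.63 in ga20ox1, 0.09 to 0.70 in ABA2-OE and 0.12 to 0.75 in GA20OX1-OE, each against Col-0, and -1.01 to -0.39 in the interaction of aba2 with GA20OX1-OE; the ends -0.08, 0.09, 0.12 and -0.39 came without Col-0 array 3. Quantile normalization removed median shifts of up to 0.11 between genotypes. The stricter filter (lowest 50%) left GH3.3 out.

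Of 280 alternative counts of called auxin genes 36 moved by over 1.5 times; the cause was not tested. Parentheses hold the share of all probe sets called in that setting. Array weights gave 4 in the mean aba2 effect (23.5%), 4 in aba2/ga20ox1 against ga20ox1 (21%), 2 in ABA2-OE against aba2 (29.5%), 2 in GA20OX1-OE against ga20ox1 (15%), and in aba2/GA20OX1-OE 2 against GA20OX1-OE (8.69%), 3 against aba2 (2.43%) and 1 against aba2/ga20ox1 (7.24%). Without the trend it was 1 in aba2 against Col-0 (4.44%), and in aba2/GA20OX1-OE 1 against aba2 (0.735%) and 0 against GA20OX1-OE (3.9%). Without a filter it was 1 in aba2/ga20ox1 against Col-0 (4.66%), 0 in ABA2-OE against aba2 (8.19%) and 0 in aba2/GA20OX1-OE against GA20OX1-OE (3.01%). In ABA2-OE against aba2 it was 2 with the stricter filter (17.9%), 2 with only these genotypes (19.3%) and 3 after quantile normalization (12.6%). Without GA20OX1-OE array 2 and aba2/GA20OX1-OE array 3 it was 0 in aba2/GA20OX1-OE against GA20OX1-OE (2.02%). Without all arrays numbered 3 it was 0 there (2.82%), in ABA2-OE against aba2 (8.7%) and in aba2/ga20ox1 against ga20ox1 (2.52%). Single arrays left out gave 0 to 1 in ABA2-OE against aba2, 0 to 2 in aba2/ga20ox1 against ga20ox1, 0 to 0 in aba2/GA20OX1-OE against GA20OX1-OE and 2 to 3 in the mean aba2 effect. HAT2 and IAA18 kept their calls there under all 28 alternatives. Over all probe sets 2544 were called there (range 1780 to 3744).

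Replicate numbers were not treated as pairs: 31 of 63 same-number pairs had deviations correlated over 0.1 (median 0.099, and -0.04 for other numbers). Deviations were taken from genotype means, so the value for other numbers largely follows from that for same numbers. As a hint, 16 of 21 arrays correlated best on average with their own number. The replicate block (GH3.3 SE 0.27, without it 0.35) gave 3 auxin genes in ABA2-OE against aba2 (19%) and 2 in aba2/ga20ox1 against ga20ox1 (7.5%). Over all probe sets, ABA2-OE against Col-0 had 211 calls with it and 36 without.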
